A study of Mus musculus with 6 samples.

Results

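The genes described here are 42 mouse genes of mitosis and the spindle, chosen by name: mitotic cyclins and kinases, spindle checkpoint proteins, kinetochore and condensin subunits, mitotic kinesins, cytokinesis proteins and Foxm1. All 42 are among the 23398 genes of the deposited table, each once. RNA came from BMDC, mouse dendritic cells derived from bone marrow, kept in DMEM with serum and antibiotics and exposed for 12 hours to calcium hydroxide (Ca(OH)2) nanoparticles or to vehicle. There are 3 vehicle libraries and 3 nanoparticle libraries, and both groups differ in nothing else that the labels name. Strain, sex and age of the mice, the growth factors of the culture and the particle dose are not given in the sources used here, nor is it said whether libraries of a group came from separate mice or cultures, so p-values measure the spread between these libraries, which may be technical.

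Cells enter mitosis when cyclin B binds and activates the kinase CDK1. Aurora and Polo-like kinases then build the spindle, condensin compacts the chromosomes, and kinetochores tie them to microtubules while the spindle checkpoint holds back CDC20 and the anaphase-promoting complex. Kinesins and the central spindle finally separate the chromosomes and the daughter cells. Most of these genes are transcribed late in the cell cycle, under the MuvB complex with B-MYB and FOXM1, and they are silent in resting cells, so their RNA serves as a common measure of dividing cells. Dendritic cells in marrow cultures arise from dividing precursors, and maturation is known to go with exit from the cell cycle.

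MuvB is known to contact the cell cycle genes homology region (CHR), a short element near the transcription start that often lies beside CCAAT boxes, which bind NF-Y. Because most members moved together in the data below, their promoters were searched on both strands for the CHR core in its forms TTTGAA and TTCGAA and for CCAAT, over the 300 bases from 250 before to 50 after the start, with RefSeq sequences of build GRCm38.p6. TTCGAA reads the same on both strands, and neighbouring matches may share a base. RefSeq windows were found for 34 members, and 30 of them held at least 1 match. The following stretches lie before the start and outside annotated exons. They are written 5′ to 3′ on the gene's strand, and carry the matches in capitals (ATTGG and TTCAAA are CCAAT and TTTGAA read from the other strand). Cdk1, Cdc20 and Kif11 are shown as genes that fell and hold both elements, Top2a as the member with the smallest adjusted p, Mki67 as a gene with both elements that did not pass the test, and Mad2l1 and Birc5 as genes with neither, of which Birc5 fell and Mad2l1 did not pass.
Cdk1 promoter, chr10:69352939-69353032, minus strand: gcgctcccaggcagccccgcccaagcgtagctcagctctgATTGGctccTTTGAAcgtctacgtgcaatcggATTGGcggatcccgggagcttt
Cdc20 promoter, chr4:118437353-118437463, minus strand: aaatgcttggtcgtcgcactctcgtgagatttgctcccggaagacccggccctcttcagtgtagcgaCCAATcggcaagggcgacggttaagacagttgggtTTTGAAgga
Kif11 promoter, chr19:37376262-37376381, plus strand: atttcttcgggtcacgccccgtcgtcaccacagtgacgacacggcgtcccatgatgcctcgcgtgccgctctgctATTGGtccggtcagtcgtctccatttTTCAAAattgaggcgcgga
Top2a promoter, chr11:99024200-99024429, minus strand: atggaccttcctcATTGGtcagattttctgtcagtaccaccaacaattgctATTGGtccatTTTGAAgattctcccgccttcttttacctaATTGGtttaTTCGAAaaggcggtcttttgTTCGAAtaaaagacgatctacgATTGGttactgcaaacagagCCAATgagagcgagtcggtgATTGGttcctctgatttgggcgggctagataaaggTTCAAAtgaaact
Mki67 promoter, chr7:135716451-135716579, minus strand: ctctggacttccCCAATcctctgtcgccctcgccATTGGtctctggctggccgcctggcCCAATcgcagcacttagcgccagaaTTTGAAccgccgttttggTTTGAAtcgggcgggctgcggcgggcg
Mad2l1 promoter, chr6:66535101-66535220, plus strand: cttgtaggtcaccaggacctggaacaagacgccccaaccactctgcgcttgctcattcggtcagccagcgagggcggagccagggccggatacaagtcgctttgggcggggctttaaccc
Birc5 promoter, chr11:117849117-117849236, plus strand: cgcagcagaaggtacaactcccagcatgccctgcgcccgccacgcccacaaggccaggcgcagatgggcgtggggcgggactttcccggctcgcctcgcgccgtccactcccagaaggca

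The form TTTGAA was found in the windows of 27 of 34 members (79.4%), against 20.2% of the 27025 genes with such windows. CCAAT was found in 27 of 34 members (79.4%), against 41.1% of all genes. The rarer form TTCGAA was in 3 of 34 members (8.82%), against 1.8%. Both a CHR core and CCAAT were present in 25 of 34 members (73.5%), against 8.61% of all genes. In the stretches above, the CHR core lies 18 bases before the start of Cdc20 and 19 before that of Kif11, with CCAAT 53 and 45 bases before the start. Top2a carries 6 CCAAT matches and 4 CHR cores. Bub3, which did not pass, holds both elements as well, with TTTGAA 43 bases before its start. These matches are letters in a window, and no binding was measured.

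**Figure D1:**
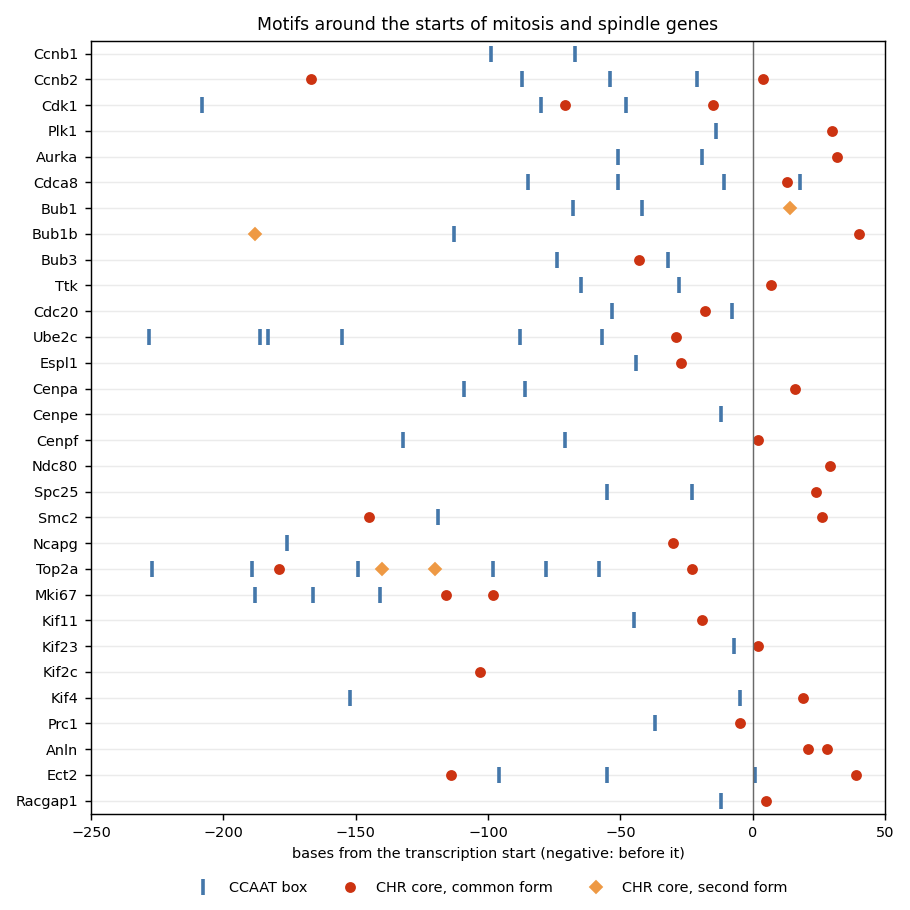
Positions of CCAAT (bars) and of the CHR core in its common form (TTTGAA, circles) and its rarer form (TTCGAA, diamonds) in the promoter windows of the 30 members with at least 1 match, in bases from the transcription start; where a member has several windows, the first is drawn. Most CHR cores lie within 50 bases of the start, with CCAAT boxes on their upstream side.

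Values are FPKM (fragments per kilobase of transcript, on the authors' scale between libraries), a unit inferred from the values, with 17285976 to 21980696 reads per library recovered from them. The test throughout is limma's moderated test on log2(FPKM + 1) over the 10682 genes that reach 1 FPKM in 3 or more libraries, called at a Benjamini-Hochberg adjusted p under 0.05. Folds are ratios of the group means of FPKM, and n is 3 libraries per group for every mean, SD and test. Nanoparticle library 1 stood apart from the other libraries: leaving it out raised the number of called genes from 3550 to 6923, and results that turn on it are given with and without it. The scale between libraries matters for direction. With libraries scaled by total reads, all tested genes had a median log2 change of -0.28, and scaled to an equal sum of FPKM one of -0.38, in place of 0.00.

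RNA of the mitosis and spindle genes was much lower in the nanoparticle libraries. Of the 42 members, 41 were tested and 37 fell, 0 rose and 4 (Tpx2, Mki67, Bub3 and Mad2l1) did not pass. No member rose at an unadjusted p under 0.05 or with limma-voom either (0 in both). Of all tested genes, 16.2% fell, 17.0% rose and 33.2% passed in either direction. Ttk, at a mean of 0.901 FPKM with vehicle, was below the filter. With no filter all 42 were tested and 38 fell, Ttk included, against 7.46% of the 23398 genes. The filter itself favours such genes: 20 of the 41 tested members had no nanoparticle library at 1 FPKM and entered through the vehicle libraries alone, and 10 had all 3 nanoparticle libraries at 1 FPKM or more. Every nanoparticle library lay below every vehicle library in 39 members, Ttk included. Among the 41 tested members 38 showed this order, against 26.2% of tested genes. The reverse order was seen in 0 members and in 25.9% of tested genes. Limma-voom on the recovered reads called 37 members lower, against 16.7% of tested genes. Scaled by total reads 39 were lower, against 33.8%, and scaled to an equal sum of FPKM 40, against 40.3%.

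Summed over the 42 members, RNA was at 231, 259 and 260.3 FPKM in vehicle libraries 1 to 3 and at 59.8, 70.3 and 73.4 FPKM in nanoparticle libraries 1 to 3. The nanoparticle libraries thus lay close to each other and far below the vehicle libraries in this sum. Abundant members weigh most in it: in nanoparticle library 1 Mki67, Tpx2 and Incenp held 8.77, 8.79 and 8.72 FPKM. Among the 3 nanoparticle libraries, library 1 was lowest in 27 members and highest in 10, so single members were less alike than the sum. Among the 37 members that fell, the fold ran from 2.00 to 16.3, with 28 members at 5-fold or more and 10 at 10-fold or more. The median fold over all 42 members was 7.62, where the median over all tested genes, vehicle over nanoparticle, was 0.977. The median log2 change of the tested members was -1.50, against 0.00 for all tested genes. That scale understates low genes: with limma-voom on the recovered reads the members' median was -3.06. In bulk RNA, fewer dividing cells and less RNA per cell cannot be told apart.

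**Figure D2:**
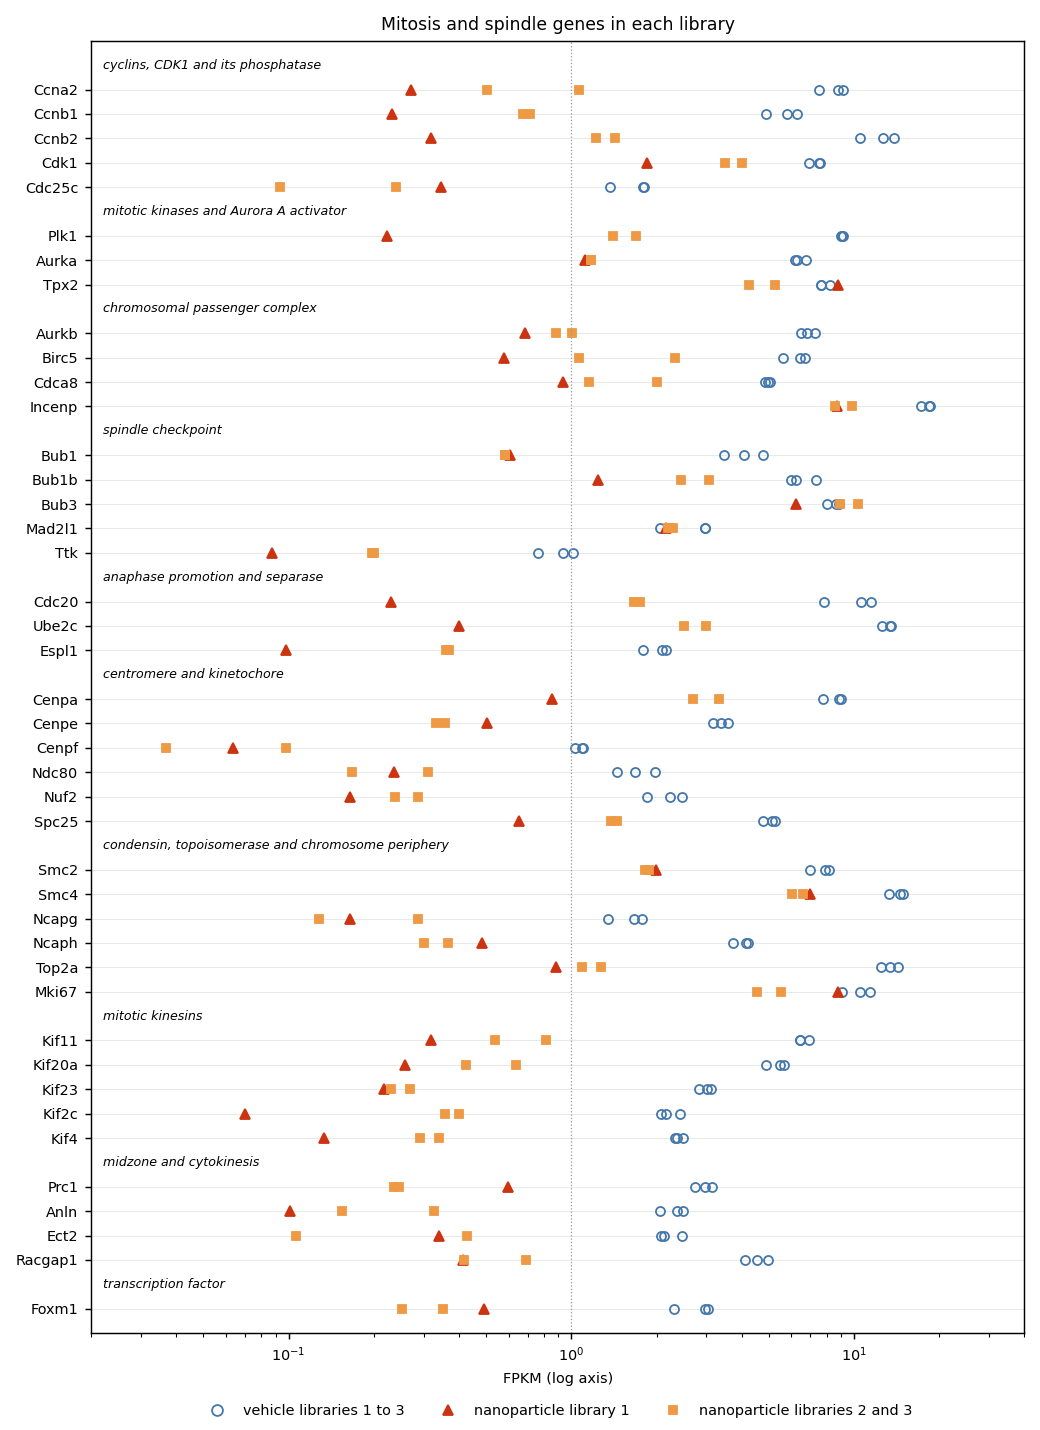
FPKM of each of the 42 members in the 6 libraries on a log axis, ordered by role; open circles are vehicle libraries, the triangle is nanoparticle library 1 and squares are nanoparticle libraries 2 and 3, and the dotted line marks 1 FPKM. In 39 members all nanoparticle libraries lie left of all vehicle libraries, while Tpx2, Bub3 and Mad2l1 overlap.

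The cyclins and CDK1 form the engine of mitotic entry, and all 5 members of this group fell. Cyclin A2 (Ccna2, ENSMUSG00000027715, chromosome 3, 36564865 to 36572150), which drives S phase and early mitosis, was at 7.49, 8.8 and 9.13 FPKM in vehicle libraries 1 to 3 and at 0.27, 0.503 and 1.07 FPKM in nanoparticle libraries 1 to 3. The groups lay far apart, with nanoparticle library 1 lowest, and the mean fell 13.8-fold (log2 change -2.58, SE 0.194, limma adjusted p = 2.9e-04). Cyclin B2 (Ccnb2) was the most abundant of the group with vehicle, at 10.5, 13.9 and 12.7 FPKM with vehicle and 0.32, 1.22 and 1.42 FPKM with nanoparticles. It fell 12.5-fold (log2 change -2.79, SE 0.248, limma adjusted p = 5.2e-04), and nanoparticle library 1 again lay well below libraries 2 and 3. Cyclin B1 (Ccnb1), the main partner of CDK1 in mitosis, had 4.87, 5.77 and 6.29 FPKM with vehicle and 0.232, 0.716 and 0.677 FPKM with nanoparticles, a 10.4-fold fall (log2 change -2.12, limma adjusted p = 3.3e-04). The kinase Cdk1 had a smaller fold than these cyclins, a difference that was not tested. Its values were 6.95, 7.51 and 7.54 FPKM with vehicle and 1.85, 3.49 and 4.02 FPKM with nanoparticles, a fold of 2.35 (log2 change -1.06, SE 0.216, limma adjusted p = 0.012). The nanoparticle libraries kept 1.85 FPKM or more of Cdk1, below every vehicle library, and without vehicle library 3 the call was lost (limma adjusted p = 0.051). Cdc25c, the phosphatase that activates CDK1, was low throughout, at 1.37, 1.79 and 1.8 FPKM with vehicle and 0.347, 0.0934 and 0.241 FPKM with nanoparticles, and fell 7.29-fold (limma adjusted p = 0.0013).

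Of the mitotic kinases, Plk1 and Aurka fell while Tpx2, the spindle protein that activates Aurora A, did not pass. Polo-like kinase 1 (Plk1) was at 8.97, 9.06 and 9.1 FPKM with vehicle and 0.223, 1.4 and 1.7 FPKM with nanoparticles. Vehicle libraries agreed closely, nanoparticle library 1 was lowest, and the fold was 8.16 (log2 change -2.33, SE 0.295, limma adjusted p = 0.0018). Aurora A (Aurka) had 6.19, 6.76 and 6.28 FPKM with vehicle and 1.11, 1.17 and 1.17 FPKM with nanoparticles, so that the libraries of each group lay close together. It fell 5.57-fold (log2 change -1.78, SE 0.0876, limma adjusted p = 8.4e-05). Tpx2 was at 8.24, 7.61 and 7.62 FPKM with vehicle and 8.79, 4.25 and 5.27 FPKM with nanoparticles: nanoparticle library 1 lay above every vehicle library and libraries 2 and 3 below them. The difference did not pass (log2 change -0.36, SE 0.229, limma adjusted p = 0.27), and without nanoparticle library 1 Tpx2 was lower (log2 change -0.62, limma adjusted p = 0.0014).

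All 4 members of the chromosomal passenger complex, which corrects faulty kinetochore attachments and later acts at the midzone, fell. Its kinase Aurora B (Aurkb) was at 6.51, 7.26 and 6.83 FPKM with vehicle and 0.686, 1.01 and 0.881 FPKM with nanoparticles, a fall of 8.01-fold (log2 change -2.08, SE 0.106, limma adjusted p = 9.0e-05). Survivin (Birc5), which guides the complex to the centromere, had 5.59, 6.69 and 6.42 FPKM with vehicle and 0.576, 1.07 and 2.32 FPKM with nanoparticles and fell 4.72-fold (limma adjusted p = 0.0042). Borealin (Cdca8) fell 3.62-fold, from 4.95 ± 0.111 to 1.37 ± 0.571 FPKM (SD, limma adjusted p = 0.002). The scaffold Incenp was the most abundant of all members with vehicle and fell least among those called. It was at 17.2, 18.4 and 18.6 FPKM with vehicle and 8.72, 9.82 and 8.55 FPKM with nanoparticles, a fold of 2.0 with groups well apart (log2 change -0.93, SE 0.0981, limma adjusted p = 9.3e-04).

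Of the 5 genes of the spindle checkpoint 4 were tested. The kinase Bub1 and the pseudokinase BubR1 (Bub1b) fell, whereas Bub3 and Mad2l1, the small proteins that make up the checkpoint complex with BubR1, did not pass. Bub1 was at 3.47, 4.76 and 4.09 FPKM with vehicle and 0.605, 0.583 and 0.584 FPKM with nanoparticles, with the 3 nanoparticle libraries almost equal, and fell 6.96-fold (log2 change -1.68, SE 0.119, limma adjusted p = 2.5e-04). Bub1b fell 2.89-fold, from 6.51 ± 0.731 to 2.25 ± 0.922 FPKM (SD, limma adjusted p = 0.0075). Ttk (MPS1), the kinase that starts checkpoint signalling, had 1.01, 0.933 and 0.759 FPKM with vehicle and 0.0872, 0.197 and 0.20 FPKM with nanoparticles, and its groups did not overlap. It was not tested at the filter of 1 FPKM, and with no filter it was lower (log2 change -0.71, limma adjusted p = 0.0053). Bub3, which also has roles outside mitosis, was at 8.83, 8.01 and 8.61 FPKM with vehicle and 6.24, 8.88 and 10.3 FPKM with nanoparticles. Nanoparticle library 1 was the lowest of all 6 and library 3 the highest, so the group means were nearly equal, with a fold of 1.0 (log2 change -0.02, SE 0.175, limma adjusted p = 0.93). Mad2l1 (MAD2) was at 2.05, 2.96 and 2.96 FPKM with vehicle and 2.16, 2.28 and 2.2 FPKM with nanoparticles, with overlapping groups (log2 change -0.17, SE 0.13, limma adjusted p = 0.35). The calls of these genes rest on the scale: scaled to an equal sum of FPKM, both Bub3 (log2 change -0.45, limma adjusted p = 0.028) and Mad2l1 (log2 change -0.51, limma adjusted p = 0.03) were called lower, and scaled by total reads Mad2l1 was (log2 change -0.42, limma adjusted p = 0.048).

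The genes of anaphase onset all fell. Ube2c, the ubiquitin-conjugating enzyme of the anaphase-promoting complex, was among the most abundant members with vehicle. It was at 12.6, 13.4 and 13.5 FPKM with vehicle and 0.40, 3.0 and 2.49 FPKM with nanoparticles. Nanoparticle library 1 held far less than libraries 2 and 3, and the mean fell 6.71-fold (log2 change -2.40, SE 0.387, limma adjusted p = 0.0047). Cdc20, the activator of that complex whose promoter is printed above, was at 7.82, 11.5 and 10.6 FPKM with vehicle and 0.23, 1.75 and 1.67 FPKM with nanoparticles, with nanoparticle library 1 again lowest, and fell 8.21-fold (limma adjusted p = 0.0028). Separase (Espl1), the protease that cuts cohesin, was at 1.79, 2.1 and 2.16 FPKM with vehicle and 0.098, 0.359 and 0.368 FPKM with nanoparticles and fell 7.34-fold (log2 change -1.25, SE 0.128, limma adjusted p = 8.5e-04).

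All 6 centromere and kinetochore members fell. Cenpe, the kinesin that carries chromosomes to the spindle equator, was at 3.16, 3.38 and 3.57 FPKM with vehicle and 0.504, 0.358 and 0.331 FPKM with nanoparticles. Its libraries were tight in each group, with nanoparticle library 1 highest of its group, and the fold was 8.47 (log2 change -1.65, SE 0.101, limma adjusted p = 1.5e-04). Cenpa, the histone H3 variant that marks centromeres, was the most abundant of the group at 7.77, 9.01 and 8.82 FPKM with vehicle and 0.857, 2.7 and 3.33 FPKM with nanoparticles. It fell 3.72-fold (log2 change -1.62, SE 0.313, limma adjusted p = 0.0092), with nanoparticle library 1 at less than the others. Cenpf, a large protein of the outer kinetochore, had the highest fold of all members at 16.3, but from a low level, at 1.03, 1.09 and 1.1 FPKM with vehicle and 0.0635, 0.0979 and 0.037 FPKM with nanoparticles. Of the NDC80 complex, which binds microtubules, Ndc80 fell 7.14-fold, Nuf2 9.49-fold and Spc25 4.33-fold (limma adjusted p = 8.4e-04, 4.1e-04 and 0.0012).

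Condensin, the ring that compacts chromosomes, is built on the ATPases SMC2 and SMC4, and condensin I adds NCAPG, NCAPH and NCAPD2. All 4 condensin members fell. Smc4 was at 13.3, 14.8 and 14.5 FPKM with vehicle and 6.99, 6.59 and 6.05 FPKM with nanoparticles, a fold of 2.17 with both groups tight (log2 change -1.01, SE 0.0994, limma adjusted p = 7.4e-04). Smc2 fell 4.04-fold, from 7.67 ± 0.605 to 1.9 ± 0.0862 FPKM (SD), and the condensin I subunits Ncapg and Ncaph fell 8.25-fold and 10.5-fold (limma adjusted p = 1.5e-04, 8.3e-04 and 1.1e-04). Topoisomerase IIα (Top2a, ENSMUSG00000020914, chromosome 11, 98992943 to 99024189), which untangles sister chromosomes, was at 12.4, 13.4 and 14.3 FPKM with vehicle and 0.883, 1.27 and 1.09 FPKM with nanoparticles. Its groups were far apart, the fold was 12.4, and its adjusted p was the smallest of all members (log2 change -2.79, SE 0.112, limma adjusted p = 4.1e-05).

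Mki67 (ENSMUSG00000031004, chromosome 7, 135689784 to 135716361), which codes for the Ki-67 protein that coats mitotic chromosomes and is the usual marker of dividing cells, did not pass. It was at 9.06, 10.5 and 11.3 FPKM with vehicle and 8.77, 5.53 and 4.54 FPKM with nanoparticles. Nanoparticle library 1 lay just below the lowest vehicle library and libraries 2 and 3 well below, and the groups did not overlap (log2 change -0.67, SE 0.221, limma adjusted p = 0.06). Without nanoparticle library 1 Mki67 was lower (log2 change -0.90, limma adjusted p = 6.2e-04), as it was when scaled by total reads (log2 change -0.97, limma adjusted p = 0.016).

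The 5 mitotic kinesins all fell, by 8.05-fold to 12.5-fold. Kif11 (Eg5), which pushes the spindle poles apart, was at 6.45, 6.46 and 6.95 FPKM with vehicle and 0.318, 0.815 and 0.538 FPKM with nanoparticles, with well separated groups and a fold of 11.9 (log2 change -2.30, SE 0.137, limma adjusted p = 1.4e-04). Kif23, the motor of centralspindlin, was at 2.82, 3.11 and 3.02 FPKM with vehicle and 0.217, 0.268 and 0.23 FPKM with nanoparticles, with each group tight (log2 change -1.69, SE 0.0905, limma adjusted p = 1.1e-04). Kif20a, which works at the midzone, fell 12.1-fold, the chromosome-bound Kif4 9.37-fold and the microtubule-shortening Kif2c 8.05-fold (limma adjusted p = 1.4e-04, 2.6e-04 and 8.1e-04). Kif2c had 5 recovered reads in nanoparticle library 1, the fewest of any member in a single library.

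The 4 genes of the midzone and cytokinesis fell together. Racgap1, the GTPase-activating partner in centralspindlin with Kif23, was at 4.11, 4.95 and 4.52 FPKM with vehicle and 0.415, 0.418 and 0.689 FPKM with nanoparticles, and its groups lay far apart (log2 change -1.88, SE 0.119, limma adjusted p = 1.6e-04). Prc1, which bundles midzone microtubules, fell 8.23-fold, the furrow protein anillin (Anln) 11.8-fold, and Ect2, the exchange factor that switches on RhoA, 7.63-fold (limma adjusted p = 4.6e-04, 3.5e-04 and 7.4e-04). Prc1 was the one member more than 2-fold higher in nanoparticle library 1 than in both other nanoparticle libraries, at 0.596, 0.235 and 0.246 FPKM, a pattern of 5.6% of tested genes. Foxm1, the transcription factor that activates many of these genes, was at 2.3, 3.05 and 2.97 FPKM with vehicle and 0.49, 0.252 and 0.352 FPKM with nanoparticles. It fell 7.61-fold, with nanoparticle library 1 highest of its group (log2 change -1.47, SE 0.127, limma adjusted p = 4.8e-04).

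Over all 42 members, Ttk included though not tested, nanoparticle library 1 was the lowest of its group in 27 (64.3%) and the highest in 10. Among all tested genes it was the lowest in 46.3%, and among all genes that fell in 50.5%. It was more than 2-fold below both other nanoparticle libraries in 11 of the 42 members (26.2%), against 9.16% of tested genes. These were Ccnb1, Ccnb2, Plk1, Ttk, Cdc20, Ube2c, Espl1, Cenpa, Spc25, Kif2c and Kif4. Of them, Kif2c, Cdc20, Ttk, Ccnb2 and Plk1 had 5 to 8 recovered reads in nanoparticle library 1, where counting error is wide. Relative to the vehicle mean, nanoparticle libraries 1 to 3 held 2.46, 15.5 and 18.8 percent for Plk1 and 2.3, 17.5 and 16.7 percent for Cdc20. For Prc1 they held 20.2, 7.96 and 8.33 percent and for Tpx2 112, 54.3 and 67.4 percent. The order of libraries within the nanoparticle group therefore differed between members, while 37 stayed below vehicle in all 3 libraries and passed. Without this library 39 of 41 tested members fell, against 30.5% of tested genes, with Tpx2 and Mki67 added and Bub3 and Mad2l1 still outside the call.

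**Figure D3:**
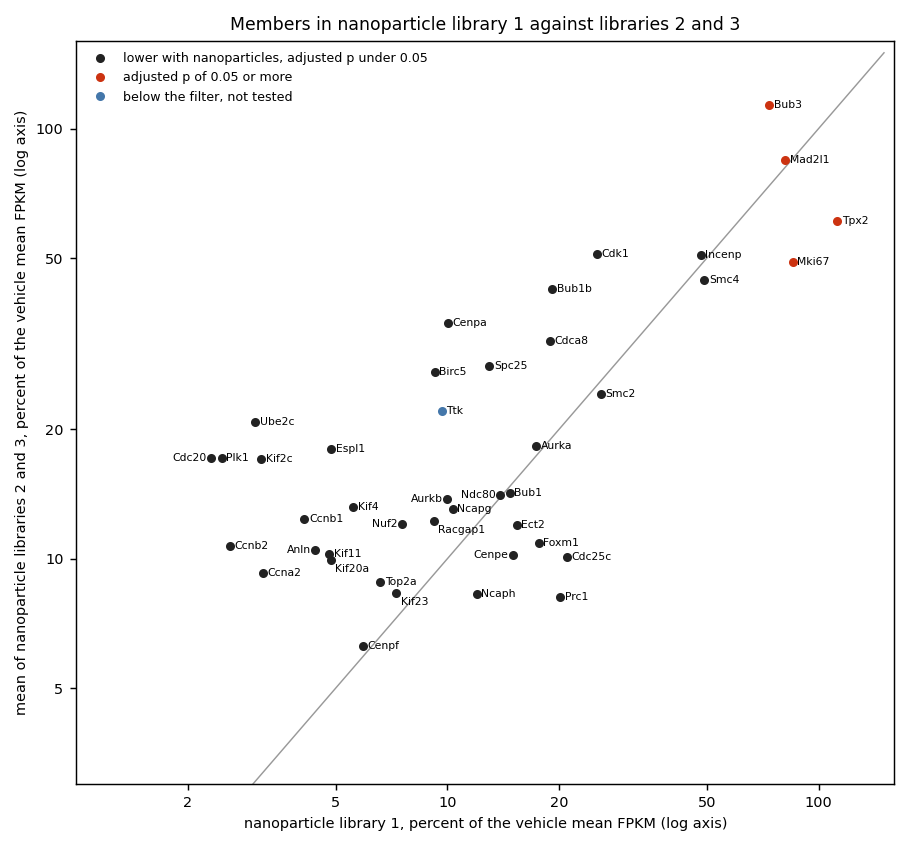
Each member's FPKM as a percent of its vehicle mean, in nanoparticle library 1 (horizontal) and as the mean of nanoparticle libraries 2 and 3 (vertical), both on log axes; the line marks equal values and colours give the test. Plk1, Cdc20, Ube2c and Ccnb2 lie far above the line, Prc1, Tpx2 and Mki67 below it, and the members that did not pass sit at the upper right.

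Other genes of the same machinery were read from the same test, in lists that hold no member, and their counts stand against the 16.2% of all tested genes that fell and the 17.0% that rose. Of 32 tested centromere and kinetochore genes 22 fell and 2 rose, and of 23 tested spindle, kinesin and cytokinesis genes 19 fell and 0 rose (0 also at an unadjusted limma p under 0.05 and with limma-voom). Of 19 tested mitotic regulators 12 fell and 3 rose. Their median log2 changes were -0.85, -1.21 and -1.16. Cenph, Knl1 and Sgo1 went from 2.06 ± 0.0762 to 0.222 ± 0.103 FPKM, 1.38 ± 0.177 to 0.0903 ± 0.0562 FPKM and 1.51 ± 0.0982 to 0.111 ± 0.12 FPKM (SD). Kifc1 fell 8.26-fold, Nusap1 7.82-fold and Ckap2 14.2-fold, and the kinase gene Pbk 10.1-fold, the cyclin gene Ccnf 4.91-fold and Cdca3 8.69-fold. A few genes went the other way. Securin (Pttg1), the protein that holds separase inactive until anaphase, was at 4.67, 4.57 and 5.12 FPKM with vehicle and 13.7, 20.3 and 24.8 FPKM with nanoparticles. All nanoparticle libraries lay above all vehicle libraries, a 4.1-fold rise while its partner Espl1 fell (log2 change 1.80, SE 0.208, limma adjusted p = 0.0013). Scaled by total reads Pttg1 was still higher (log2 change 1.49, limma adjusted p = 0.0016). Zwint, a kinetochore linker, rose 1.6-fold, Trip13, the ATPase that takes apart the checkpoint complex, 2.45-fold and the phosphatase subunit Ppp2r2a 1.52-fold (limma adjusted p = 0.0048, 0.044 and 0.013). Scaled by total reads these 3 were no longer called (limma adjusted p = 0.062, 0.079 and 0.17).

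The core subunits of the anaphase-promoting complex, which is needed outside mitosis too, were tested next. Of 16 tested, 2 fell (Cdc23 and Anapc1), 1 rose (Anapc7) and 13 did not pass, with a median log2 change of 0.17 that changed sign, to -0.14, scaled by total reads. Anapc7 rose 1.5-fold and Cdc23 fell 1.59-fold (limma adjusted p = 0.027 and 0.039). Scaled by total reads Anapc7 was no longer called (limma adjusted p = 0.27). The counts changed when single libraries were left out. Without nanoparticle library 1, 10 rose and 3 fell, where 34.3% and 30.5% of all tested genes did. Without any 1 vehicle library or nanoparticle library 2, none of the 16 passed. Calls over all tested genes fell as well, from 3550 to 2226, 2188 and 2141 without vehicle library 1, 2 or 3. Without nanoparticle library 2 they were 2806. With all 6 libraries 4 of the 16 rose at an unadjusted limma p under 0.05, a level at which all tested genes were not counted. Of 15 other condensin and cohesin subunits 7 fell and 0 rose in limma, where 16.2% of all tested genes fell and 17.0% rose. Without nanoparticle library 1, 11 of the 15 fell, where 30.5% of all tested genes did. None of the 15 rose at an unadjusted p under 0.05 or with limma-voom, which holds for the DNA replication genes below as well. The condensin I subunit Ncapd2 went from 6.74 ± 0.576 to 0.821 ± 0.124 FPKM, a fall of 8.21-fold (limma adjusted p = 9.0e-05), and the condensin II subunit Ncapg2 fell 4.26-fold. The cohesin ring gene Smc3 fell 2.1-fold (limma adjusted p = 7.6e-04).

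Genes of the preceding phases of the cycle were set beside these, where 16.2% of all tested genes fell and 17.0% rose. Of 42 tested DNA replication genes 30 fell and 0 rose, with a median log2 change of -0.78. The ribonucleotide reductase genes went from 7.1 ± 0.279 to 1.67 ± 0.0893 FPKM for Rrm1 and from 18.1 ± 1.34 to 2.24 ± 0.796 FPKM for Rrm2 (SD), and the helicase subunit Mcm7 fell 4.58-fold. Among 21 tested E2F, RB and MuvB regulators 8 fell and 2 rose. B-MYB (Mybl2), which joins MuvB to switch on mitotic genes, fell 5.3-fold, from 2.48 ± 0.27 to 0.468 ± 0.138 FPKM (SD, limma adjusted p = 6.6e-04). E2f2 fell 8.54-fold and E2f8 2.77-fold, while E2f5 rose 3.14-fold and the MuvB subunit Lin37 1.56-fold (limma adjusted p = 0.014 and 0.01). Scaled by total reads, Lin37 was no longer called (limma adjusted p = 0.10).

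Of 14 tested G1 cyclins, CDKs and CDK inhibitors 5 fell and 3 rose, where 16.2% of all tested genes fell and 17.0% rose. Without nanoparticle library 1, 8 fell and 5 rose, where 30.5% of all tested genes fell and 34.3% rose. Without any 1 vehicle library 4 of the 14 passed in all. Those fits called 2226, 2188 and 2141 of all tested genes, against 3550 with all 6 libraries. The inhibitor p15 (Cdkn2b), which blocks CDK4 and CDK6, was at 4.59, 4.5 and 4.72 FPKM with vehicle and 12.1, 12.6 and 13.7 FPKM with nanoparticles and rose 2.77-fold (log2 change 1.30, SE 0.0917, limma adjusted p = 2.4e-04). The inhibitor p21 (Cdkn1a) was abundant in both groups and rose 1.65-fold, from 138 ± 0.581 to 227 ± 31.6 FPKM (SD, limma adjusted p = 0.01). Scaled by total reads the call of Cdkn1a was lost (limma adjusted p = 0.062) and that of Cdkn2b was kept (limma adjusted p = 3.9e-04). The inhibitor p18 (Cdkn2c) fell 8.5-fold and cyclin E2 (Ccne2) 4.41-fold (limma adjusted p = 9.7e-04 and 3.3e-04).

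**Figure D4:**
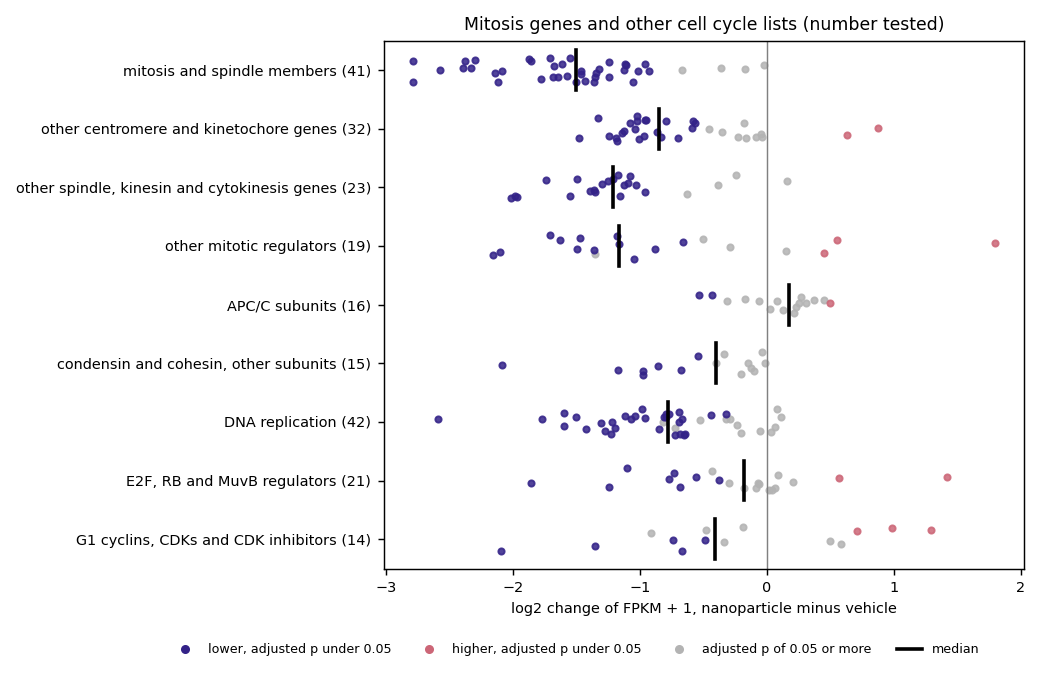
Log2 change of FPKM + 1 (nanoparticle minus vehicle) of each tested gene of the members and of 8 cell cycle lists, with the number tested in brackets; dark points fell, red points rose, grey points did not pass, and the bar is the median. The members' median is -1.50, and the isolated red point among mitotic regulators is Pttg1 at 1.80.

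Some markers of cell types that marrow cultures can hold differed between the groups as well. Their part in the fall of the mitosis genes was not tested. The counts below stand against the 16.2% of all tested genes that fell and the 17.0% that rose. Of the stem and progenitor markers, 3 of 5 tested genes fell, and the list summed to 73.7 to 76.6 FPKM with vehicle and 57.8 to 65.7 FPKM with nanoparticles. Cd34 went from 4.29 ± 0.344 to 0.36 ± 0.328 FPKM, Sox4 from 2.71 ± 0.152 to 0.50 ± 0.286 FPKM and Gata2 from 2.88 ± 0.44 to 1.31 ± 0.455 FPKM (SD), while the granule genes of early myeloid precursors were at or near 0 in both groups (Mpo, Elane and Prtn3 were listed at 0 in all vehicle libraries). Of 12 tested macrophage markers 4 rose and 5 fell, with sums of 1215 to 1349 FPKM with vehicle and 1519.8 to 1883 FPKM with nanoparticles. Cd14 rose 8.84-fold and Fcgr1 2.04-fold, and Mrc1 fell 7.24-fold. Of 7 tested neutrophil markers 3 rose and 1 fell, with a median log2 change of 1.21. Without nanoparticle library 1, 6 rose and 1 fell, where 34.3% of all tested genes rose and 30.5% fell. Lcn2 went from 0.234 ± 0.102 to 50.4 ± 3.45 FPKM and Csf3r from 0.586 ± 0.0957 to 4.21 ± 0.603 FPKM (SD), and Mmp8 was the gene that fell, by 1.88-fold. The neutrophil list summed to 284, 304 and 321 FPKM in vehicle libraries 1 to 3 and 251, 357 and 369.5 FPKM in nanoparticle libraries 1 to 3, so that nanoparticle library 1 lay below every vehicle library and the other two above them. The defining marker Ly6g was near 0 in both groups, at a mean of 0.0348 FPKM with vehicle and 0.0641 FPKM with nanoparticles. Dendritic cell markers were present in all libraries, and 2 of 10 tested genes rose and 4 fell. Their sum was 1511, 1558 and 1517 FPKM in vehicle libraries 1 to 3 and 931, 1657 and 1714 FPKM in nanoparticle libraries 1 to 3, again below every vehicle library in nanoparticle library 1 and above them in libraries 2 and 3. Ccr7 went from 2.29 ± 0.469 to 112 ± 10.5 FPKM, Irf8 rose 2.44-fold and Clec10a fell 8.81-fold, while Cd209a was at 5.17, 6.21 and 5.69 FPKM with vehicle and 0, 0.0763 and 0 FPKM with nanoparticles. Mast cell and basophil markers summed to 3.93 to 6.16 FPKM with vehicle and 10.3 to 26.1 FPKM with nanoparticles, and of 4 tested genes Hdc rose, from 0.338 ± 0.139 to 12.5 ± 10.0 FPKM (SD), and Gata2 fell. Lymphocyte markers summed to 0.398 to 0.619 FPKM with vehicle and 1.05 to 1.44 FPKM with nanoparticles, and none of their genes passed the filter.

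Exons of 12 members overlap those of another gene in GENCODE M21, 2 of them on the same strand (Foxm1 and Top2a), and whether counting used strand is not stated. Reads from such pairs therefore cannot be fully told apart. The pairs include Cdc20 and the abundant antisense Elovl1, Kif4 and Pdzd11, Ccna2 and Exosc9, and Kif20a and Cdc23. In nanoparticle library 1 Cdc20 had 7 recovered reads, with Elovl1 at 38.4 FPKM. Positions are those of GENCODE M21 on GRCm38.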

How the data were processed

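Expression of 6 libraries (3 vehicle, 3 nanoparticle, grouped by sample titles) was deposited by the authors in 2 tables of 23398 genes with identical values. The values that the authors deposited were read as FPKM. No header or label names this unit, which was worked out from the numbers: multiplied by GENCODE M21 merged exon length and 1 scale per library, 95.8% to 96.1% of the values above 0 became whole reads (within 0.01). For 521 further genes with 200 or more reads, a length was chosen that made their reads whole. The scales differed from median-of-ratios size factors by at most 0.0144%, so the FPKM carry such a scaling, and a change common to nearly all genes cannot be seen in them. The submitters' processing notes name STAR 2.5, HTSeq, edgeR 3.16.5 and DESeq2 and the builds mm10 and hg19, with no role; strand and annotation are not given in the sources used here. Recovered totals, 17285976 to 21980696 reads, set the counting error, and no member fell under 5 reads in a library.

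The 10682 genes reaching 1 FPKM in 3 or more libraries were tested with limma 3.58.1 in R 4.3.3 on log2(FPKM + 1), with group as the single term, lmFit, eBayes with trend and Benjamini-Hochberg adjustment at 0.05, and the code was tested on simulated data. Log2 changes understate low genes. Alternatives changed the pseudocount, filter, scale, trend and test (limma-voom on recovered reads), added the replicate number or left out each library. The members and lists were chosen with earlier results of these data known. Named genes are all 42 members, with every library given for the member of each role with the smallest adjusted p, the one with the highest vehicle mean and those not called, and from each list up to 3 genes with the smallest adjusted p and up to 2 that rose. Promoter sequences are RefSeq's (GRCm38.p6), and 8 members had none. Figures were drawn with matplotlib 3.10.9 under Python 3.11.15.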

Additional observations from a re-analysis of the deposited data

How the results depend on the processing

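Of 615 log2 changes (41 tested members under 15 alternatives), 605 kept their direction and side of the threshold, 7 passed in addition and 1 no longer passed (Cdk1, without vehicle library 3). The other 2 were those of Bub3, which changed sign to 0.16 without nanoparticle library 1 and to 0.0029 without vehicle library 1, neither of them called, within a range of -0.16 to 0.16 with 1 library left out. The number of members past the threshold was 36 to 39 when 1 library was left out, 37 with limma-voom and 37 to 40 under the remaining alternatives. The median log2 change of the members was -2.67 with a pseudocount of 0.1, -1.92 with 0.5 and -3.06 with limma-voom, because a smaller added value understates low genes less. It was -1.72 scaled by total reads and -1.79 scaled to an equal sum of FPKM, and -1.56 to -1.41 with 1 library left out. The count of all called genes was 2141 to 6923 with 1 library left out.

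Among the lists, scaling to an equal sum of FPKM called 6 APC/C subunits, 11 other condensin and cohesin subunits and 5 stem and progenitor markers, and scaling by total reads 11 and 5 of the latter lists. Of all 10682 tested genes, 5187 passed when scaled to an equal sum of FPKM and 4721 when scaled by total reads. With no filter, 0 APC/C subunits passed, 5 G1 genes and 1 mast cell and basophil marker, where 3381 of the 23398 genes passed. The cause was not tested. With 1 library left out, counts ran from 0 to 13 for APC/C subunits, 4 to 13 for G1 genes, 6 to 11 for condensin and cohesin, 3 to 7 for neutrophil and 1 to 3 for mast cell and basophil markers.

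The replicate numbers were not shown to pair libraries: deviations from the group means correlated at 0.065, 0.113 and -0.058 between libraries numbered 1, 2 and 3, and vehicle library 3 did not correlate best with its own number. With the replicate number as a block, 37 members (12.5% of tested genes lower) and 2785 genes in all passed, and 0 APC/C subunits. Kif2c had 5 reads in 1 nanoparticle library, and Cdc20, Ttk, Ccnb2, Plk1 and Cdc25c had 7 or 8 in theirs, so counting error is wide in those values.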

Other observations

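Ratios of 2 members within a library do not depend on the scale between libraries, and the following pairs were chosen after their values were seen, so they are descriptions with no test. The ratio of Mki67 to Top2a in FPKM was 0.729, 0.779 and 0.791 in vehicle libraries 1 to 3 and 9.93, 4.34 and 4.15 in nanoparticle libraries 1 to 3. Both genes are used as markers of dividing cells, and with vehicle Mki67 was below Top2a whereas with nanoparticles it was above it in each library. Tpx2 to Aurka, an activator and its kinase, went from 1.33, 1.13 and 1.21 to 7.89, 3.63 and 4.51. Incenp to Aurkb, the scaffold and the kinase of the passenger complex, went from 2.65, 2.54 and 2.73 to 12.7, 9.77 and 9.71. Within condensin, Smc4 to Ncaph went from 3.57, 3.58 and 3.44 to 14.5, 18.1 and 20.1, and within the checkpoint Bub3 to Bub1 went from 2.55, 1.68 and 2.1 to 10.3, 15.2 and 17.7. In each of these 5 pairs the nanoparticle libraries lay above every vehicle library.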
